A study of Homo sapiens with 4 samples.

Results

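Imprinted genes are the subject here, 31 of the 25548 gene symbols of the deposited table, chosen by name from a list of known imprinted genes and read in the FaDu columns alone. FaDu is an established human cell line from a squamous carcinoma of the hypopharynx. The series measured messenger RNA in 4 libraries, 1 for each of 2 cell lines with and without drugs. The treated FaDu cells, labelled Aza/TSA, received 5 µM 5-aza-2'-deoxycytidine (Aza) on days 1 to 3 and 100 nM trichostatin A (TSA) on day 3. The control FaDu cells are labelled DMSO only, while the protocol names DMSO as vehicle for Aza and ethanol as vehicle for TSA. Aza is a cytosine analogue that depletes active DNA methyltransferase and so reduces DNA methylation. TSA blocks histone deacetylases. The comparison asks which genes differ once both are inhibited. With 1 library in each group no difference has a replicate check and no p-value is given. The drugs were given together, so their parts cannot be told apart.

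An imprinted gene is transcribed mainly from the copy inherited from one parent. The choice is written in the germ line as DNA methylation at an imprinting control region, which is kept through cell division by the maintenance methyltransferase and by zinc-finger proteins that recruit a repressor complex to the methylated copy. Imprinted genes lie in clusters, often with a long noncoding RNA from one parental copy and protein-coding genes from the other, and many of them act in growth of the placenta and fetus, in the brain or in metabolism. By general knowledge of normal tissues, 19 of the 31 genes were assigned to paternal expression and 9 to maternal expression, and 3 were called mixed because transcript or tissue decides the parental copy. Of the maternal class, ASB4, CALCR, IGF2R and ZIM3 were assigned mainly from mouse, and PPP1R9A from some human tissues only. The table gives the total RNA of a gene and not the parental copy it came from, and which copies FaDu still imprints was not measured.

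RefSeq promoter windows, 250 bases before to 50 bases after a start, were matched for 20 of the 31 genes. There was no entry for IGF2, ZIM3, KCNQ1OT1, SLC22A18, NNAT, PEG3, SGCE, PHLDA2, DLK1, ZIM2 and PEG10. The methylation that Aza reduces lies mainly on cytosines that precede guanines. The windows are therefore described by the dinucleotide CG, read as the same letters on both strands. The first listed window of the 20 genes held 6 to 44 CG with a median of 18.5, against a median of 14 in all 35116 windows, of which 96.0% held at least 1, and a median of 24 in the 23292 windows that, like these, held 6 CG or more. Of these windows 5 are printed, 5′ to 3′ on the strand of the gene, with each CG in capitals. MEG3, NAP1L5, NDN and DIRAS3 were under 1 FPKM in the DMSO library and above it in the treated library, and H19 was already abundant in both. L3MBTL1 and MKRN3 also went from under to above 1 FPKM, and their windows are not printed.
MEG3: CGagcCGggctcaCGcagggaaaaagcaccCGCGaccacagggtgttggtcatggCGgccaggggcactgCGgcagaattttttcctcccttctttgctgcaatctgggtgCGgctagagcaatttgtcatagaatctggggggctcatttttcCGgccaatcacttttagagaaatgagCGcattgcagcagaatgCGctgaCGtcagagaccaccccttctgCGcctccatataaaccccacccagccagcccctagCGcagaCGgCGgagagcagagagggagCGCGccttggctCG
NAP1L5: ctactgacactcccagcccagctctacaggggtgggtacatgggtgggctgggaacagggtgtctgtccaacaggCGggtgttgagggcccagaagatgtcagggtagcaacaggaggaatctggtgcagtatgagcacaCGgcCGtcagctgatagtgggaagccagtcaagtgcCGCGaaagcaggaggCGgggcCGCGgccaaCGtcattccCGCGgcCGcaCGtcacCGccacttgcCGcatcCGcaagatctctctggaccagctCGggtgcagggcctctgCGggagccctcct
NDN: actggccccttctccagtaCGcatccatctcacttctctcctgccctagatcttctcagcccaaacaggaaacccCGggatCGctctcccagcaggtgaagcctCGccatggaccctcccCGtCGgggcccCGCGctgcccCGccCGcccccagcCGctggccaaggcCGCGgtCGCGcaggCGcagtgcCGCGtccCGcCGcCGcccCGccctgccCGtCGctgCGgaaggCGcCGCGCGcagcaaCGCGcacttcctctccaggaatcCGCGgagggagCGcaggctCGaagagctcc
DIRAS3: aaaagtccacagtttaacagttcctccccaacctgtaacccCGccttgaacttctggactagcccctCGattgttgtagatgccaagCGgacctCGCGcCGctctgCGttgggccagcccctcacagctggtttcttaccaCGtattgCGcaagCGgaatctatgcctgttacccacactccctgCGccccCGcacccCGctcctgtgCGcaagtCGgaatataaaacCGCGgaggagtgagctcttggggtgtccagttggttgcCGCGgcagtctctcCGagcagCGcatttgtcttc
H19: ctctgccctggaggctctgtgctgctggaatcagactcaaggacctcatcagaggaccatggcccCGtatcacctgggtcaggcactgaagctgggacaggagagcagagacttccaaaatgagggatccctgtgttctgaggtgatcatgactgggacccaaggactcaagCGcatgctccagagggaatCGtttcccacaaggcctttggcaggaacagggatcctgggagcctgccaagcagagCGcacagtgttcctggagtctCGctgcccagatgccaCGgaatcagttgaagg
These windows are at chr14:100825858-100826157 (plus strand) for MEG3, chr4:88697780-88698079 (minus strand) for NAP1L5, chr15:23687256-23687555 (minus strand) for NDN, chr1:68050578-68050877 (minus strand) for DIRAS3 and chr11:2001217-2001516 (minus strand) for H19, all on GRCh38.p14, which is not the build the deposited values were made on. The NDN window held 35 CG, DIRAS3 21, MEG3 19, NAP1L5 18 and H19 6. The letters TGCCGC, which the imprint-protecting protein ZFP57 is known to bind when their CG is methylated, were searched on both strands and overlap the CG counted above. They occurred 2 times in the NAP1L5 and DIRAS3 windows, 1 time in those of MEG3 and NDN and not in that of H19. Among the windows not printed, those of L3MBTL1, IGF2R, CALCR, MEST, BLCAP and GRB10 held them 1 time each. Those of MKRN3, ZDBF2, PLAGL1, PPP1R9A, ASB4, INPP5F, RTL1, SNRPN and GNAS did not hold them. In all, 10 of the 20 windows (50%) held them, against 16.7% of the 35116 windows and 24.1% of the 23292 windows with at least 6 CG. Only the first listed window of each imprinted gene was counted, while the 35116 windows include further starts of a gene. The first listed SNRPN window held 7 CG and 0 TGCCGC, and another SNRPN start held 18 and 2. Whether any of these windows overlaps an imprinting control region was not examined, and methylation was not measured.

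Expression is in FPKM, fragments scaled to transcript length and library size, which allows levels of different genes to be set side by side. The FaDu columns sum to 516692 FPKM in the treated library and 491963 FPKM in the DMSO library, and the number of reads behind them is not in the table. Epithelial markers (EPCAM, CDH1, KRT5, KRT8, KRT18 and TP63) were at 23.2 to 1356 FPKM in the treated library and 64.7 to 687 FPKM in the DMSO library. The 4 fibroblast markers summed to 3.61 and 0.749 FPKM in the treated and DMSO libraries, the 3 endothelial markers to 3.73 and 0.943, the 2 leukocyte markers to 0.220 and 0.0513, and the 3 neural markers to 2.07 and 0.865. In the DMSO library, COL1A2, PDGFRB, DCN, PECAM1 and CD3E were listed at 0. The part of other cell types in the results was not tested. In bulk RNA, more RNA in every cell and RNA in more cells cannot be told apart.

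The change of a gene below is log2((Aza/TSA FPKM + 1)/(DMSO FPKM + 1)), called higher or lower at 2-fold, and a gene counted as measured where one library or both had at least 1 FPKM. Adding 1 FPKM makes the change of weakly expressed genes smaller than the plain ratio. Of the 31 genes, 20 were measured. NNAT, MEG3, PHLDA2, SLC22A18, NAP1L5 and NDN were higher in the treated library and GRB10 was lower. Over all 13558 measured genes, 16.1% were higher and 5.21% lower. Of the 20 genes, 7 passed the filter only through the treated library and so had to differ upward, namely MEG3, NAP1L5, NDN, NNAT, DIRAS3, L3MBTL1 and MKRN3. The other 13 were at 1 FPKM or more in the DMSO library, and of these 2 were higher and 1 lower, against 10.5% higher and 5.85% lower of 12062 genes at that level. The median change of these 13 was 0.10, against 0.01 for the 12062 genes.

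**Figure D1:**
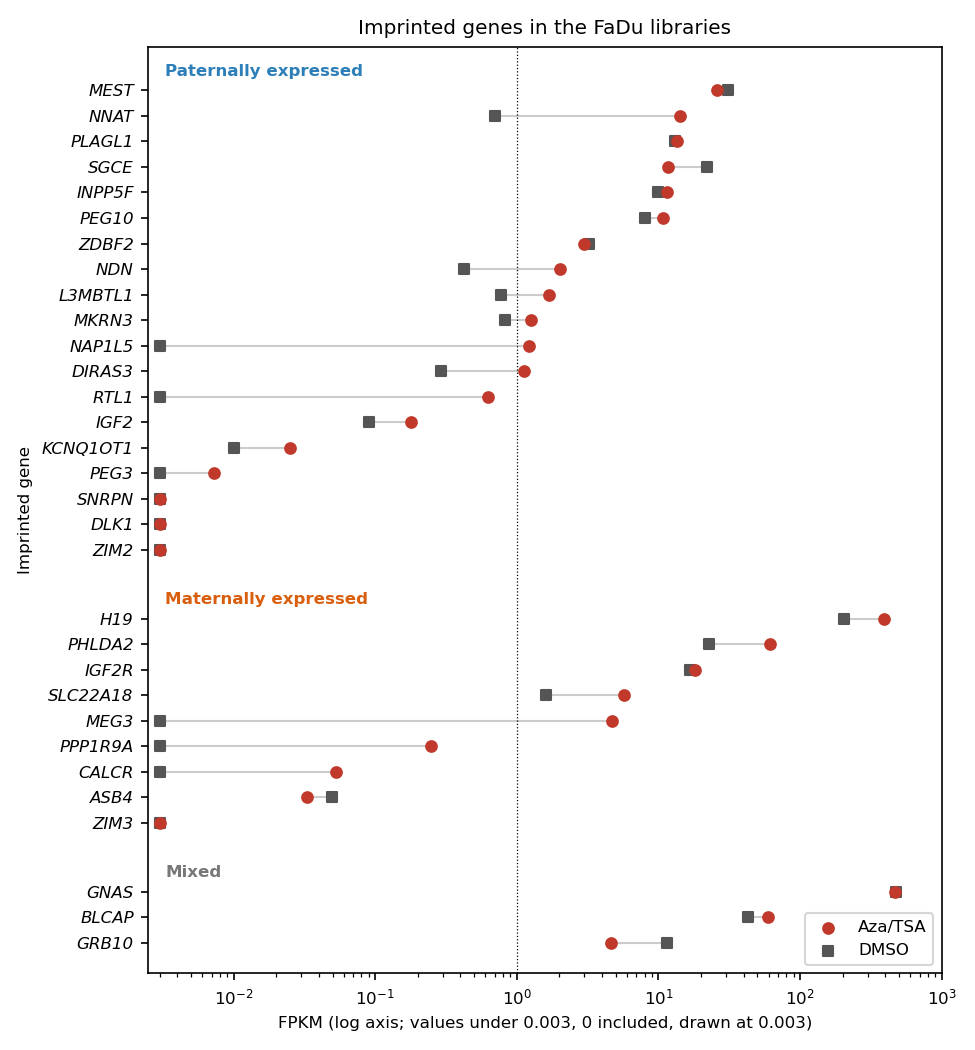
FPKM of the 31 imprinted genes (log axis) in the Aza/TSA (red circles) and DMSO (grey squares) FaDu libraries, 1 library each, by class of parental expression. The line joins the values of a gene, the dotted line marks 1 FPKM, and values under 0.003 FPKM are drawn at 0.003. H19 and GNAS were the most abundant genes in both libraries, and MEG3 and NAP1L5 exceeded 1 FPKM in the treated library while the DMSO column lists them at 0.

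The imprinted genes were next grouped by their level in the DMSO library, which does not depend on the treated library. In the DMSO library 13 of the 31 genes were under 0.1 FPKM. Of these 13, only MEG3 and NAP1L5 (15.4%) reached 1 FPKM in the treated library, against 5.25% of 9984 genes at that starting level. DLK1, ZIM2 and ZIM3 were listed at 0 in both libraries. All 5 genes that were at 0.1 to under 1 FPKM in the DMSO library (NNAT, NDN, DIRAS3, L3MBTL1 and MKRN3) reached 1 FPKM, against 27.8% of 3502 genes, and NNAT, L3MBTL1 and MKRN3 started at 0.704 to 0.830 FPKM. All 5 are of the paternal class. None of the 13 genes at 1 FPKM or more in the DMSO library was under 1 FPKM in the treated library. The same held for most genes of the table. At least 1 FPKM when treated was seen in 92.1% of 6342 genes starting at 1 to under 10 FPKM. The share was 99.3% of 5720 genes starting at 10 FPKM or more.

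Among paternally expressed genes, NNAT had the widest change. It encodes neuronatin, a small membrane protein of the endoplasmic reticulum best known in brain and pancreas. NNAT was 14.1 FPKM in the treated library, against 0.704 FPKM in the DMSO library, a change of 3.15 that lay at percentile 98.3 of all measured genes. NAP1L5, a nucleosome assembly protein family member, was 1.22 FPKM in the treated library and listed at 0 in the DMSO library (change 1.15, percentile 87.7). NDN encodes necdin, a growth suppressor of neurons from the Prader-Willi region, and was 2.00 FPKM in the treated library, against 0.422 FPKM in the DMSO library (change 1.08, percentile 86.0). NNAT reached a moderate level, while NDN and NAP1L5 were weakly expressed in the treated library too.

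DIRAS3, a RAS-related GTPase that restrains growth, was 1.13 FPKM in the treated library and 0.292 FPKM in the DMSO library. L3MBTL1, a chromatin protein that reads methylated histones, was 1.68 FPKM in the treated library and 0.776 FPKM in the DMSO library. Their plain ratios, 3.86 for DIRAS3 and 2.16 for L3MBTL1, were past 2, but their changes of 0.72 and 0.59 on the log2(FPKM + 1) scale were not. MKRN3, a ubiquitin ligase known for its part in the timing of puberty, was 1.26 FPKM in the treated library and 0.830 FPKM in the DMSO library (change 0.30).

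MEST, a protein of the hydrolase fold active in fetal tissue, was 25.7 FPKM in the treated library and 31.1 FPKM in the DMSO library. PLAGL1, a zinc-finger transcription factor, was 13.5 FPKM in the treated library and 13.2 FPKM in the DMSO library. INPP5F, an inositol phosphatase of which only some transcripts are imprinted, was 11.5 FPKM in the treated library and 9.99 FPKM in the DMSO library. These genes and ZDBF2, a zinc-finger gene at 2.97 FPKM in the treated library and 3.24 FPKM in the DMSO library, had changes between -0.26 (MEST) and 0.19 (INPP5F). None of the 6 genes of the paternal class at 1 FPKM or more in the DMSO library passed 2-fold in either direction. Of all genes at that level, 10.5% were higher and 5.85% lower.

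SGCE and PEG10 start next to each other on opposite strands and are both paternally expressed. SGCE, a sarcoglycan of the cell membrane, was 11.8 FPKM in the treated library and 22.0 FPKM in the DMSO library (change -0.85). PEG10, a retrotransposon-derived gene needed for the placenta, was 10.8 FPKM in the treated library and 8.08 FPKM in the DMSO library (change 0.38). The changes of the pair had opposite signs, neither past 2-fold. CASD1, the gene on the other side of SGCE, was 3.72 FPKM in the treated library and 9.95 FPKM in the DMSO library (change -1.21, or -0.77 corrected for transcript GC content).

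The remaining 7 paternally expressed genes were under 1 FPKM in both libraries. RTL1, a retrotransposon-derived gene of the placenta, was 0.627 FPKM in the treated library and listed at 0 in the DMSO library. IGF2, the fetal growth factor, was 0.180 FPKM in the treated library and 0.0899 FPKM in the DMSO library. KCNQ1OT1, a long noncoding RNA that silences its neighbours in cis, was 0.0251 FPKM in the treated library and 0.0101 FPKM in the DMSO library, and the zinc-finger gene PEG3 was 0.00729 FPKM when treated and listed at 0 in the DMSO library. The Notch-like ligand DLK1 and the zinc-finger gene ZIM2, which shares its first exons with PEG3, were listed at 0 in both libraries. SNRPN, a spliceosomal protein gene, was listed at 5.64e-07 FPKM in the treated library and at 0 in the DMSO library. SNURF, an upstream reading frame on the same transcript, has its own row, at 2.53 FPKM in the treated library and 0 in the DMSO library. How reads of their shared exons were divided is not given in the sources used here, and the rows summed to 2.53 and 0 FPKM in the treated and DMSO libraries, a change of 1.82. Summed, this locus was thus above 1 FPKM when treated, which the row of SNRPN alone does not show.

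**Figure D2:**
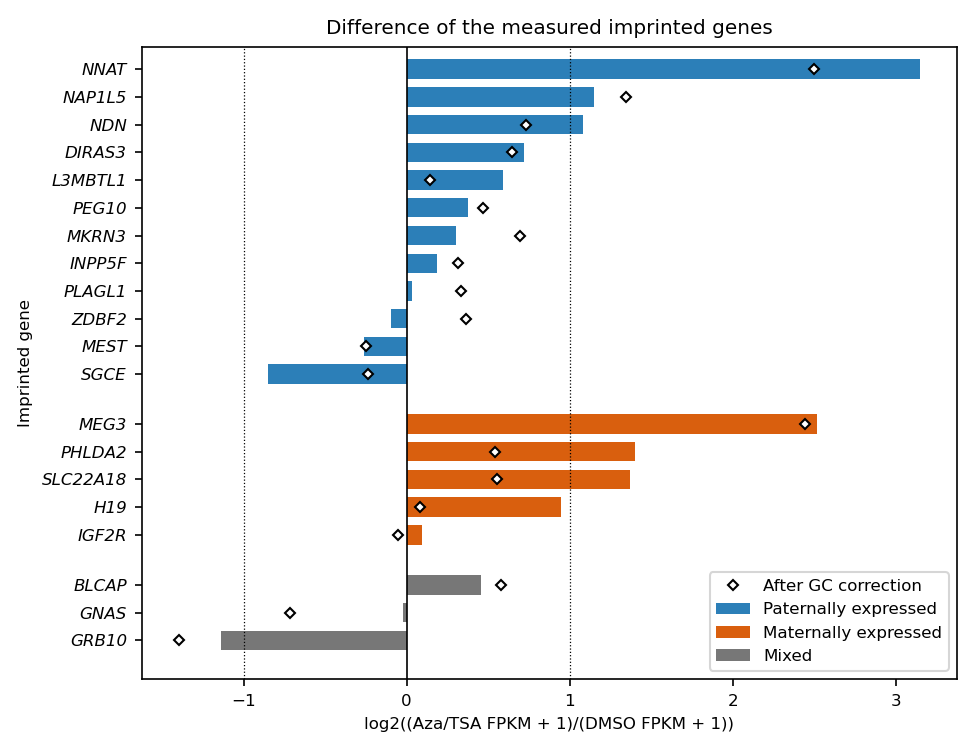
Change of the 20 measured imprinted genes, log2((Aza/TSA FPKM + 1)/(DMSO FPKM + 1)), as bars coloured by parental class, with the value after subtraction of the GC trend as open diamonds and 2-fold as dotted lines. NNAT, MEG3 and NAP1L5 lay above 2-fold in both, PHLDA2, SLC22A18 and NDN only before the subtraction, and GRB10 lay below in both.

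Of the 9 maternally expressed genes, 5 were measured, and MEG3, PHLDA2 and SLC22A18 were higher. MEG3 is a long noncoding RNA of the DLK1 cluster, described as a growth suppressor and often silent in tumours. MEG3 was 4.74 FPKM in the treated library and listed at 0 in the DMSO library, a change of 2.52 at percentile 97.6. PHLDA2, a small lipid-binding protein that restrains placental growth, was 61.4 FPKM in the treated library and 22.6 FPKM in the DMSO library (change 1.40, percentile 91.8). SLC22A18, a membrane transporter of the same cluster as PHLDA2, was 5.71 FPKM in the treated library and 1.60 FPKM in the DMSO library (change 1.37, percentile 91.5).

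H19, the long noncoding RNA that shares enhancers with IGF2, was 394 FPKM in the treated library and 204 FPKM in the DMSO library. That placed H19 at rank 195 of 25548 symbols in the treated library and rank 298 in the DMSO library. Its ratio of 1.94 and change of 0.95 lay just inside the 2-fold limit, and IGF2, its partner in the same domain, was under 0.2 FPKM in both libraries. IGF2R, the receptor that clears IGF2 and that is imprinted in mouse but only variably in humans, was 18.0 FPKM in the treated library and 16.8 FPKM in the DMSO library (change 0.10). PPP1R9A, an actin-binding protein of neurons, was 0.250 FPKM in the treated library and listed at 0 in the DMSO library. The calcitonin receptor gene CALCR was 0.0529 FPKM when treated and listed at 0 in the DMSO library, and ASB4, a ubiquitin ligase subunit, was 0.0329 FPKM in the treated library and 0.0493 FPKM in the DMSO library. The zinc-finger gene ZIM3 was listed at 0 in both libraries.

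The 3 genes of mixed expression were all well expressed. GNAS, which encodes the stimulatory G protein alpha subunit and several imprinted transcripts read into 1 row, was 468 FPKM in the treated library and 475 FPKM in the DMSO library (change -0.02). GRB10, an adaptor that dampens insulin receptor signalling, was 4.65 FPKM in the treated library and 11.4 FPKM in the DMSO library. GRB10 was the only one of the 31 genes past 2-fold downward, with a change of -1.14 at percentile 3.51. BLCAP, a small membrane protein, was 59.1 FPKM in the treated library and 42.9 FPKM in the DMSO library (change 0.46). NNAT lies inside BLCAP on the other strand. The kit was stranded, and whether counting used strand is not given in the sources used here.

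The parental classes differed in their medians, and they also differed in GC content. Of 12 measured paternally expressed genes 3 were higher, and of 5 measured maternally expressed genes 3 were higher, with none lower in either class, beside the 16.1% and 5.21% called higher and lower among all measured genes. The median change was 0.34 over the 12 paternally expressed genes and 1.37 over the 5 maternally expressed genes, a difference of -1.03, against a median of 0.13 over all measured genes. Only MEG3 of the 5, and 6 of the 12, were measured through the treated library alone. Among genes at 1 FPKM or more in the DMSO library, 0 of 6 paternally and 2 of 4 maternally expressed genes were higher, beside 10.5% of all genes at that level. Their medians were -0.03 for the paternal class and 1.16 for the maternal class, a difference of -1.19. Over all 19 and 9 genes, measured or not, the medians were 0.11 for paternal and 0.32 for maternal expression. Without INPP5F, PPP1R9A and the genes assigned mainly from mouse, the measured paternal and maternal medians were 0.38 and 1.38, over 11 and 4 genes. Measured or not, the medians of these sets were 0.07 and 1.38, over 18 and 4 genes. These medians describe few genes, several of which share a cluster.

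Across 6645 genes that had at least 5 FPKM in each FaDu library, the change followed the GC content of the longest transcript, with a Spearman correlation of 0.67, a description across genes that share these libraries. The measured paternally expressed genes had a median GC content of 44.4% (range 34.2 to 57.8%) and the maternally expressed genes 62.1% (range 48.1 to 63.4%), against 48.4% for all measured genes. With the GC trend subtracted, the medians were 0.42 for the paternal class and 0.54 for the maternal class, a difference of -0.13. PHLDA2 at 63.1% GC, SLC22A18 at 62.1% and H19 at 63.4% had changes of 0.54, 0.55 and 0.08 after the subtraction. NNAT, MEG3 and NAP1L5 had changes of 2.50, 2.44 and 1.34, and NDN had 0.73. GRB10 had -1.40 and GNAS -0.72. After the subtraction 3 imprinted genes were higher and 1 lower, against 7.55% higher and 4.33% lower of 11573 measured genes with a GC value. The 3 higher, NNAT, MEG3 and NAP1L5, had passed the filter only through the treated library. No imprinted gene at 1 FPKM or more in the DMSO library was higher after the subtraction. Whether the GC trend is technical was not tested.

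**Figure D3:**
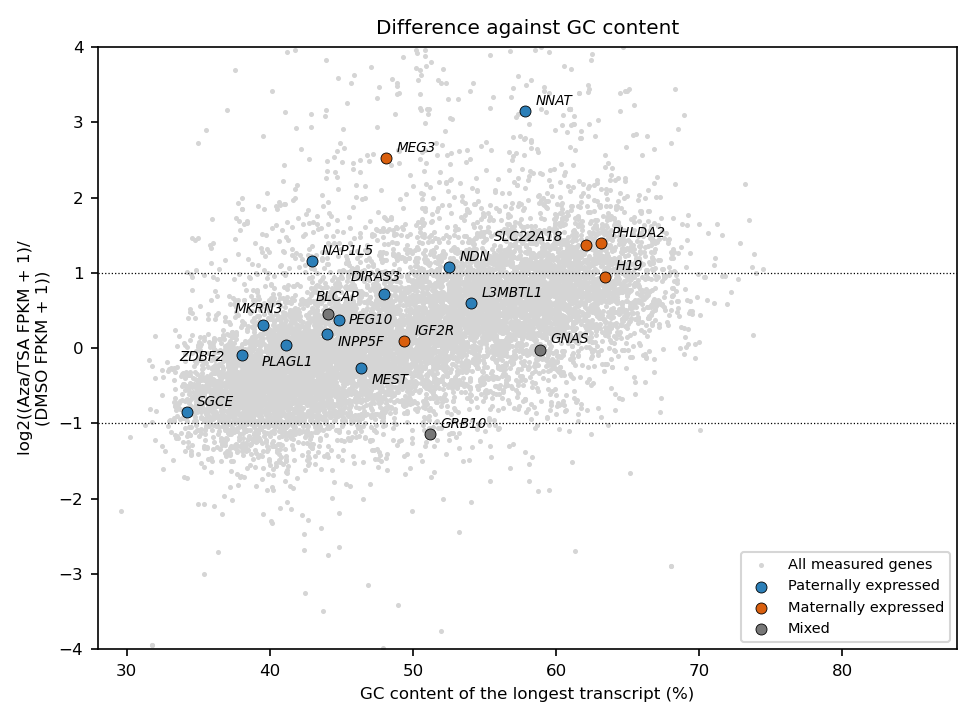
Change of each measured gene, log2((Aza/TSA FPKM + 1)/(DMSO FPKM + 1)), against the GC content of its longest transcript in percent, with imprinted genes coloured by parental class and all measured genes in grey (140 of 11573 genes, with changes beyond 4 in size, are outside the axis). H19, PHLDA2 and SLC22A18 lie within the cloud of genes at 62 to 63% GC, while MEG3, NNAT and NAP1L5 lie above most genes of like GC content and GRB10 below most.

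Along the clusters, genes side by side had changes of different size and sign. In the chromosome 14 cluster, MEG3 was the only measured imprinted gene. DLK1 was at 0 in both columns, and MEG8 at 0.203, DIO3 at 0.596 and RTL1 at 0.627 FPKM in the treated library were at 0 in the DMSO column. In the chromosome 11 cluster, the growth inhibitor gene CDKN1C lies between KCNQ1OT1 and PHLDA2 and was 0.497 FPKM in the treated library and 0.575 FPKM in the DMSO library. TSSC4, in the same cluster, was 14.5 FPKM in the treated library and 4.54 FPKM in the DMSO library, a change of 1.48 that was 0.52 after the GC trend was subtracted. In the Prader-Willi region of chromosome 15, MAGEL2, next to NDN, was listed at 0 in both libraries, and the ubiquitin ligase gene UBE3A, maternally expressed in neurons, was 14.8 FPKM in the treated library and 22.0 FPKM in the DMSO library. Of 52 neighbouring genes with a row, 38 were measured, 2 were higher (TSSC4 and TH) and 2 lower (CASD1 and IFT52), with a median change of -0.17 over the 38. All measured genes had 16.1% higher, 5.21% lower and a median of 0.13. The higher neighbours TSSC4 and TH had changes of 1.48 and 1.12, and the lower ones CASD1 and IFT52 -1.21 and -1.04. With the GC trend subtracted these became 0.52 for TSSC4, 0.16 for TH, -0.77 for CASD1 and -0.92 for IFT52, none past 2-fold, and the only neighbour past it was NPEPL1, an aminopeptidase-like gene named after its value was seen, at -1.77.

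**Figure D4:**
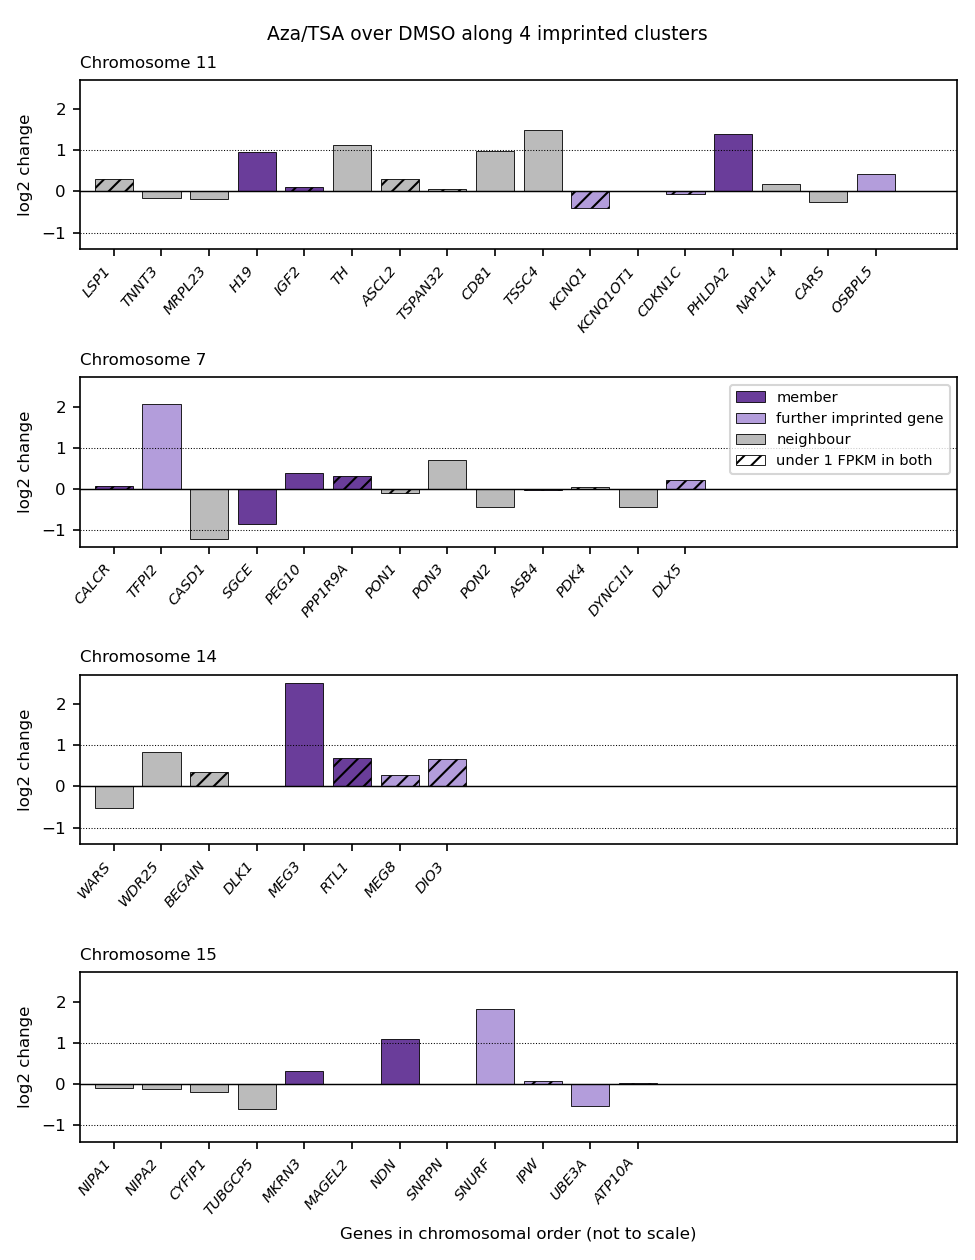
Change, log2((Aza/TSA FPKM + 1)/(DMSO FPKM + 1)), of genes in chromosomal order (not to scale) along 4 imprinted clusters, with the 31 imprinted genes (members) in dark purple, further imprinted genes in light purple and neighbours in grey. Hatched bars are genes under 1 FPKM in both libraries, and SLC22A18 is not drawn. MEG3, at 2.52, stands beside DLK1, listed at 0 in both libraries.

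A further list of imprinted genes, written from general knowledge and including genes imprinted in some tissues only, had rows for 45 of 50 symbols. Of these 45, 15 were measured, among them 5 higher and 3 lower ones, and the median change of the 15 was 0.29. All measured genes had 16.1% higher, 5.21% lower and a median of 0.13. Of the 15, 3 passed the filter only through the treated library and so had to differ upward, NLRP2 and SNURF among them. Of the 12 at 1 FPKM or more in the DMSO library, 3 were higher and 3 lower, with a median change of 0.08. All genes at that level had 10.5% higher, 5.85% lower and a median of 0.01. With the GC trend subtracted, 4 of the 15 were higher, NLRP2 and SNURF again among them, and 2 lower. Of all measured genes with a GC value, 7.55% were then higher and 4.33% lower. CPA4, a carboxypeptidase, was 20.4 FPKM in the treated library and 1.05 FPKM in the DMSO library (change 3.39). NLRP2, an inflammasome-family protein known from oocytes, was 3.73 FPKM in the treated library and listed at 0 in the DMSO library (change 2.24). TFPI2, a protease inhibitor, had a change of 2.06 and SNURF 1.82. RB1, the retinoblastoma tumour suppressor, was 7.40 FPKM in the treated library and 22.7 FPKM in the DMSO library (change -1.49). LPAR6, a lipid receptor gene inside an intron of RB1, was 1.73 FPKM in the treated library and 5.25 FPKM in the DMSO library (change -1.19). ERAP2, a peptide-trimming enzyme, had a change of -1.38. LPAR6 had -0.78 after the GC trend was subtracted.

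Factors that set or keep imprints were read in a list of 18 genes, of which 13 were measured. ZFP57, the zinc-finger protein that binds methylated imprinting control regions, was 10.3 FPKM in the treated library and 0.143 FPKM in the DMSO library, a change of 3.30 (2.91 after the GC trend was subtracted). The oocyte gene KHDC3L, listed under its older symbol C6orf221, was 1.31 FPKM in the treated library and listed at 0 in the DMSO library. ZFP57 and KHDC3L passed the filter only through the treated library and so had to differ upward. The other 11 measured factors, all at 1 FPKM or more in the DMSO library, had changes between -0.46 (SMCHD1) and 0.95 (UHRF1). None was past 2-fold in either direction, beside 10.5% higher and 5.85% lower of all 12062 genes at that level. ZNF445, the other zinc-finger protein known to protect imprints, was 1.95 FPKM in the treated library and 1.84 FPKM in the DMSO library. TRIM28, the co-repressor that these proteins recruit, was 53.2 FPKM in the treated library and 27.1 FPKM in the DMSO library (change 0.95). With the GC trend subtracted, TRIM28 was at 0.07 and UHRF1 at 0.47.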

How the data were processed

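The authors deposited FPKM in 1 table of gene symbols by libraries, per the file headers. The submitters' processing notes name TopHat 1.3.2, Cufflinks 2.0.2 and the hg19 build. The sources used here do not give the annotation, the filters or how libraries were scaled to each other. Only the FaDu columns were used, and 45 repeated rows were summed to 25548 symbols. The change was log2((treated + 1)/(DMSO + 1)), with a minimum of 1 FPKM in either library and a call at 2-fold. The GC trend came from the longest GENCODE release 29 transcript of each gene by lowess (fraction 0.3, statsmodels 0.14.6). It was fitted over genes with at least 5 FPKM in each FaDu library and subtracted from weaker genes too. The subtraction was tested on simulated data made from genes at 5 FPKM or more in the DMSO library only. Weaker genes were not covered by that test. The depth is unknown, and no interval is given. All 31 genes are named, and of the other lists those past 2-fold, up to 4 in each direction, with neighbours. Other genes, among them CDKN1C, UBE3A, MAGEL2, MEG8, DIO3, ZNF445 and TRIM28, were chosen after their values were seen. A planned leukocyte marker and a planned neighbour are not reported here. The members and lists were chosen with earlier results of these data known.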

Additional observations from a re-analysis of the deposited data

How the results depend on the processing

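The 6 imprinted genes called higher became 2 with a pseudocount of 5 FPKM, 3 with a minimum of 5 FPKM, 3 after GC correction and 2 with the minimum applied to the DMSO library alone, a setting chosen after seeing the data, and the 1 called lower became 0 with a pseudocount of 5 FPKM. The 3 higher paternally expressed genes became 5 with a pseudocount of 0.1 FPKM, 1 with a pseudocount of 5 FPKM, 1 with a minimum of 5 FPKM and 0 with the minimum applied to the DMSO library. The 3 higher maternally expressed genes became 1 with a pseudocount of 5 FPKM and 1 after GC correction. The paternal minus maternal median of -1.03 became -0.21 with no filter and -0.13 after GC correction. With no filter and human parental assignments only it was -1.31. The smaller counts under stricter minimums follow from fewer genes. The counts under other pseudocounts follow from the formula, in which a larger pseudocount makes each change smaller. The cause of the other shifts was not tested. TPM scaling, centring on the median of all measured genes, the highest of repeated rows and human parental assignments left every count within 1.5 times, and no called gene turned its direction under any setting tried. The paternal median of 0.34 was -0.03 with the minimum applied to the DMSO library, and the neighbours' median of -0.17 was 0.01 over all rows. Centring on the median took NDN to 0.95, just under 2-fold. With 1 library in each group no replicate could be left out. No paired analysis was possible because the groups share fewer than 2 replicate numbers. The read depth is unknown.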

Other observations

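At the lowest levels, values of some imprinted genes stood in simple ratios. IGF2 in the treated library was 2.00 times its value in the DMSO library, and ASB4 was 0.667 times, while KCNQ1OT1 was 2.48 times. The read numbers behind these values are not in the table, and these ratios were noticed in the data.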
